A study of Rattus norvegicus with 12 samples.

Results

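The genes described here act in mitosis and chromosome segregation. They were taken from a list of 54 symbols, and every row of the expression table that carried one of those symbols was kept. Of the 54 symbols, 49 were among the 12271 genes of the table, and all 49 passed the filter on low values. Kif4a and Cenpe (a chromosome arm kinesin and a kinetochore kinesin), Anln (the cleavage furrow protein anillin), and Ncapg and Ncaph (condensin I subunits) had no row and were not analysed here.

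RNA was sequenced from 12 cultures of cardiac fibroblasts isolated from the ventricles of Sprague Dawley rats at postnatal day 2. The cells were transfected with negative control siRNA, with siRNAs to Yap, with siRNAs to Wwtr1 (the gene for TAZ), or with siRNAs to both genes, at 25 nM of each, and 3 libraries were made per group. Collection was 48 hours after transfection according to the labels, while the study's methods place it 48 hours after a change of medium made the day after transfection, and the study repeated the isolation with separate litters. The comparison asks how far the loss of one or both coactivators altered the mitotic transcripts of these cells.

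All 4 groups were wild-type primary cells that had received siRNA, and knockdown lowers a transcript without removing it. The design text speaks of myocytes while the sample labels speak of fibroblasts, and the siRNA label of the double knockdown names only the Wwtr1 siRNAs. All 10 fibroblast markers searched were present, and their summed normalized count lay between 2583687 and 3782241 in every library, against 42562 to 93840 for the 9 of 10 cardiomyocyte markers in the table.

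Yap and Wwtr1 are transcriptional coactivators restrained by the Hippo kinases and bring TEAD family DNA-binding proteins into play at their targets. Entry into mitosis depends on cyclin-dependent kinase 1 with its A and B cyclins. A spindle then forms from microtubules, motors and crosslinkers, the checkpoint holds anaphase until kinetochores are attached, and the anaphase-promoting complex releases the sister chromatids. Most of these genes are transcribed late in the cell cycle, through promoters that carry a cell cycle genes homology region (CHR) and boxes for the factor NF-Y, and their transcripts are widely read as a sign of how many cells in a culture are cycling.

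Because many of these genes move together through the cell cycle, their promoters were read first. RefSeq promoters on GRCr8, from 250 bases before the annotated start to 50 after it, were found for 47 of the 54 listed genes and for 42 of the 49 with values; Aurkb, Ccna2, Foxm1, Incenp, Racgap1, Tpx2 and Ube2c had no entry. The stretches shown are the 100 bases before the start for 4 genes that fell in the double knockdown and carry both words, 2 that did not pass the test and carry both, and 2 without a CHR word, of which 1 fell. Capitals mark exact matches on either strand to CHR (TTTGAA or TTTAAA) and to the NF-Y box (CCAAT), and positions count back from -1 at the base before the start.

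Cdk1 (fell, chr20:19265193-19265292, plus strand): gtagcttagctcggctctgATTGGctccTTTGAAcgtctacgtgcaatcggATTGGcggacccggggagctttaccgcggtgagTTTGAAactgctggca
Ccnb1 (fell, chr2:33655226-33655325, minus strand): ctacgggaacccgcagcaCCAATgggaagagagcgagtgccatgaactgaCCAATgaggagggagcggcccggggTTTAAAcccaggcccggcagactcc
Kif23 (fell, chr8:71320585-71320684, minus strand): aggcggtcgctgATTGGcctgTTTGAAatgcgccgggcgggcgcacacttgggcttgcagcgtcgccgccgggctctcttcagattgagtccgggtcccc
Prc1 (fell, chr1:143659381-143659480, plus strand): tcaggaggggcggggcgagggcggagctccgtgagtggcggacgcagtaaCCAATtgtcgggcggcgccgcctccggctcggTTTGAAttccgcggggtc
Ccnb2 (did not pass, chr8:79981659-79981758, minus strand): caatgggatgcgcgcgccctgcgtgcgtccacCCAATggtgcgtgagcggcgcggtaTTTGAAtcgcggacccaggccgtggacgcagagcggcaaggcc
Cdc20 (did not pass, chr5:137255800-137255899, minus strand): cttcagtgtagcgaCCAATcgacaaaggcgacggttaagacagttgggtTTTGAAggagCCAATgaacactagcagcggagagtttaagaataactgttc
Cdca3 (fell, chr4:159321103-159321202, plus strand): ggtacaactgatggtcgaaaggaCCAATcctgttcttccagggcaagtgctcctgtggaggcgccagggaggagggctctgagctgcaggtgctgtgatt
Bub3 (did not pass, chr1:195760432-195760531, plus strand): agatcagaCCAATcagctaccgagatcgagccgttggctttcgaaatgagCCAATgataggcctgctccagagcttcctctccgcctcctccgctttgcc

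Over the whole window of 300 bases, 35 of the 42 promoters (83.3%) held a CHR word, against 27.9% of all 27457 promoters, and 33 (78.6%) held CCAAT, against 37.7%. Both words stood in 66.7% of the 42 and in 11.1% of all promoters. In the 17 promoters with both words in the last 100 bases, the nearest CHR lay closer to the start than the nearest CCAAT in 13, as in Cdk1, Ccnb1 and Prc1, and the words overlapped in 2. Cdc20 has the reverse order for its nearer CCAAT, with CHR beginning at -51 and CCAAT at -41.

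The CHR word did not separate the genes that fell from those that did not pass. It was present in 15 of the 19 promoters of genes called lower in the double knockdown (78.9%) and in 20 of the 23 of genes not called (87.0%). With the calls made without double knockdown replicate 3, a library that stood apart from its group, the shares were 24 of 28 (85.7%) and 11 of 14 (78.6%). Melk and Cdca3, which were among the 5 largest falls, had no CHR word in the window, and neither did Bub3, the only member with a fitted value above 0 in the double knockdown.

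The TEAD word (CATTCC) was in 4.76% of the 42 promoters, those of Aurka and Nek2, both called lower in the double knockdown (2 of 19 called and 0 of 23 not called), against 13.9% of all promoters, and the AP-1 word (TGACTCA) was in 2.38%, that of Cdc25b, against 4.53%. The E2F words (TTCCCGC or TTGGCGC) were in 16.7% of the 42 (26.3% of the called and 8.7% of the not called) and in 59.5% of 42 S phase promoters, where CHR was in 23.8%. An exact match describes these letters in this window and is not a binding site, and distant enhancers were not searched.

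**Figure D1:**
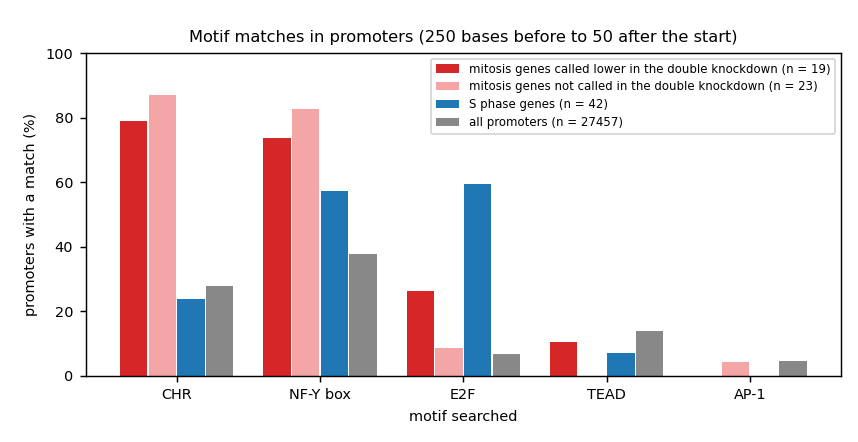
The bars give the share of promoters (%) with at least 1 exact match to each motif, for mitosis genes called lower in the double knockdown (19 promoters), mitosis genes not called (23), S phase genes (42) and all promoters (27457); the NF-Y box is the CCAAT word. CHR stood in 78.9% and 87.0% of the 2 mitosis groups, against 23.8% of the S phase promoters, which carried E2F words in 59.5%.

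The table held normalized counts, which are gene counts divided by one factor per library. Every value was a whole multiple of a single step per library, and the recovered totals were 33886920 to 41059839 reads per library. Differences were fitted with limma on log2(normalized count + 1) over 11871 genes and all 12 libraries, and a gene was called at a Benjamini-Hochberg adjusted p under 0.05. Changes are given as log2 fold changes with the standard error (SE).

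The targeted genes were lower where the labels said so. Yap1 counted 3042, 3776 and 2984 in negative siRNA, 532, 576 and 625 in Yap siRNA, and 713, 739 and 1474 with both. Wwtr1 counted 2364, 2565 and 2280 in negative siRNA, 524, 550 and 637 in Wwtr1 siRNA, and 818, 731 and 1056 with both. Neither single siRNA lowered the other gene (Wwtr1 2134 to 2500 in Yap siRNA, Yap1 3151 to 3184 in Wwtr1 siRNA).

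Double knockdown replicate 3 stood apart from its group. It kept the most Yap1 and Wwtr1 of the 3 double knockdown libraries. The 9 of 10 macrophage markers in the table (Cd163 had no row) summed to a normalized count of 45252 there and to 6339 and 13039 in the other double knockdown libraries. They summed to 21158 to 30509 in negative siRNA, 17957 to 26539 in Yap siRNA, and 10880, 18690 and 16073 in Wwtr1 siRNA, so Wwtr1 siRNA and double knockdown replicates 1 and 2 lay wholly below the controls. The 8 endothelial markers summed to 4181 to 4667 in negative siRNA, 3377 to 3855 in Yap siRNA, 5333 to 5752 in Wwtr1 siRNA and 3882 to 4922 in the double knockdown. The fibroblast sum was 3522245 to 3685308 in Yap siRNA, wholly above the 2792687 to 3288329 of negative siRNA. The part of these marker shifts in the mitotic transcript levels was not tested, and the counts of called members, roles and lists in the double knockdown are given with and without this library, while the values of single genes include it unless stated.

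In the double knockdown 22 of the 49 mitosis genes fell and 0 rose, while 15.6% of all genes tested were called lower and 17.1% higher. The mean normalized count of the called genes fell by 24.9% at the least, in Prc1, and fell by 39.5% at the most, in Melk, and the median log2 fold change over the 49 was -0.45, against 0.00 over all genes tested. The fitted value was below 0 in 48 of 49 members and in 49.5% of all genes. In 21 of the 22 called genes, every double knockdown library was below every negative siRNA library. The same held for 30 of the 49 members and for 21.5% of all genes.

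Without double knockdown replicate 3, 33 members were called lower, the 22 included, and 0 higher, when 17.2% of all genes were called lower and 16.9% higher, and the median was -0.62. The 11 further genes were Kif11 (-0.91), Ttk (-0.78), Racgap1 (-0.71), Spc25 (-0.65), Mad2l1 (-0.64), Mki67 (-0.63), Bub1 (-0.62), Cenpa (-0.52), Birc5 (-0.46), Smc2 (-0.42) and Incenp (-0.41). By role, the calls went from 1 to 4 of the 5 checkpoint genes, from 1 to 3 of the 4 passenger complex genes, from 1 to 3 of the 5 kinetochore genes, from 2 to 3 of the 7 kinesins, from 1 to 2 of the 2 cytokinesis genes and from 2 to 4 of the 4 chromosome structure genes, and stayed at 6 of 11 entry genes, 5 of 6 microtubule binders and 3 of 5 anaphase genes. The count also depended on single libraries in the other direction: it was 9 without negative siRNA replicate 3 or without double knockdown replicate 1, 10 without negative siRNA replicate 1 and 11 without double knockdown replicate 2. Of the 22 genes, 8 stayed called in all 12 fits that left out a library. RNA from whole cultures cannot tell apart fewer dividing cells from less of each transcript per cell.

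**Figure D2:**
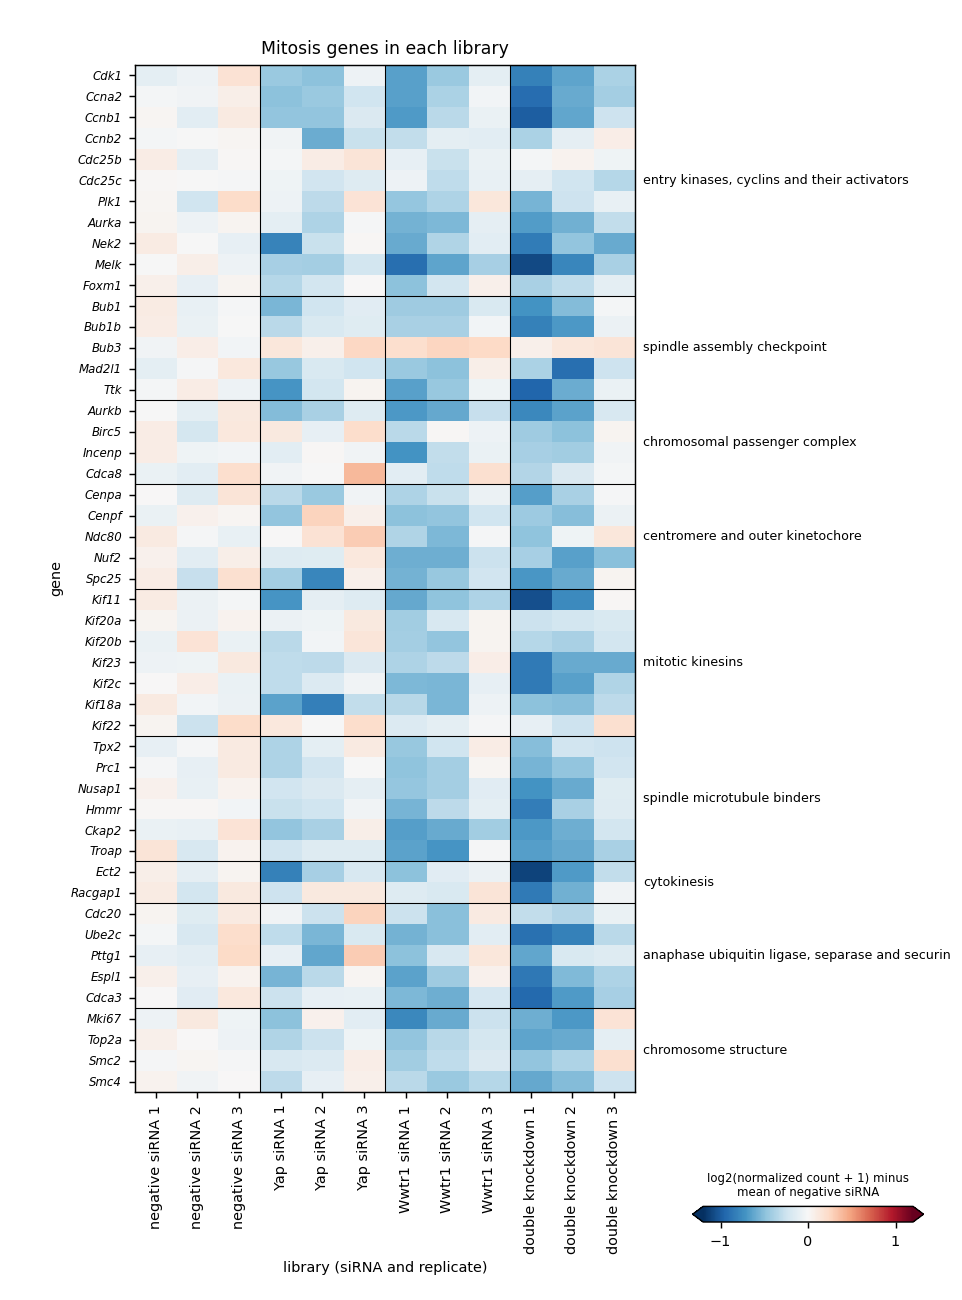
Each row is a mitosis gene, ordered by role, and each column is a library; colour gives log2(normalized count + 1) minus the mean of the 3 negative siRNA libraries, blue for lower and red for higher. Blue is deepest in double knockdown replicates 1 and 2, while the replicate 3 column of each treated group is paler, and Bub3 is the row without blue in any treated library.

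Among the kinases and cyclins of mitotic entry, 6 of 11 fell in the double knockdown, with a median of -0.51. Over all genes, 15.6% were called lower. Roles were not tested against each other. Ccna2, the A-type cyclin of S phase and early mitosis, counted 2363, 2336 and 2519 in negative siRNA, 1713, 1768 and 2038 in Yap siRNA, 1533, 1851 and 2351 in Wwtr1 siRNA, and 1273, 1580 and 1817 with both. All double knockdown libraries lay below all negative siRNA libraries, and the fall was 0.64 (log2 fold change -0.64, SE 0.15, adjusted p = 0.00754). Cdk1, the kinase that drives entry, counted 2188, 2267 and 2680 in negative siRNA, 1744, 1686 and 2270 in Yap siRNA, 1512, 1744 and 2187 in Wwtr1 siRNA, and 1351, 1529 and 1819 with both (-0.61, SE 0.16, adjusted p = 0.0122). The double knockdown lay wholly below the controls, and replicate 3 of each single knockdown reached into or close to the control range.

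Ccnb1, the main B-type cyclin, went the same way, from 1410 to 1659 in negative siRNA to 776, 998 and 1295 in the double knockdown (-0.62, SE 0.18, adjusted p = 0.0231). The other B-type cyclin, Ccnb2, did not pass: it counted 431, 436 and 444 in negative siRNA and 336, 406 and 462 in the double knockdown, with overlapping groups (-0.13, SE 0.15, adjusted p = 0.539). The upstream activator Cdc25b, a phosphatase that acts on Cdk1, had overlapping counts, at 1403, 1226 and 1329 in negative siRNA against 1297, 1357 and 1274 in the double knockdown (-0.01, SE 0.08).

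Melk, a kinase of proliferating cells, had the largest fall of the 49. It counted 598, 629 and 576 in negative siRNA, 455, 453 and 515 in Yap siRNA, 320, 388 and 456 in Wwtr1 siRNA, and 283, 348 and 459 with both (-0.75, SE 0.17, adjusted p = 0.00592). Each treated group lay wholly below negative siRNA. Aurka, the centrosomal Aurora kinase (-0.51, adjusted p = 0.0198), and Nek2, a kinase of centrosome separation (-0.64, adjusted p = 0.029), also fell, while Plk1 (-0.30), the phosphatase Cdc25c (-0.23) and the transcription factor Foxm1 (-0.27), an activator of many genes in this list, did not pass.

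Of the 5 spindle assembly checkpoint genes, Bub1b alone fell (-0.52, SE 0.17, adjusted p = 0.0338), a share near the 15.6% of all genes called lower. Bub1, a checkpoint kinase at kinetochores, counted 1391, 1221 and 1289 in negative siRNA and 789, 903 and 1275 in the double knockdown, where replicate 3 reached into the control range (-0.42, SE 0.16, adjusted p = 0.0659). Bub3, which carries Bub1 and Bub1b to kinetochores, had a mean above that of the controls in every treated group: it counted 1961, 2135 and 1982 in negative siRNA, 2229, 2109 and 2405 in Yap siRNA, 2334, 2420 and 2388 in Wwtr1 siRNA, and 2108, 2224 and 2253 with both. Wwtr1 siRNA lay wholly above the controls without passing the test (0.23, SE 0.07, adjusted p = 0.0543). Mad2l1 (-0.51) and Ttk (-0.54) had values close to that of Bub1b with larger standard errors, and did not pass.

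In the chromosomal passenger complex, the kinase Aurkb fell, and the other 3 subunits did not pass, when 15.6% of all genes were called lower. Aurkb counted 1125, 1041 and 1218 in negative siRNA, 786, 858 and 1013 in Yap siRNA, 696, 734 and 927 in Wwtr1 siRNA, and 658, 720 and 986 with both (-0.54, SE 0.16, adjusted p = 0.0234). Every treated library was below every control. Incenp, the scaffold of the complex, counted 1570, 1421 and 1440 in negative siRNA and 1117, 1105 and 1436 in the double knockdown (-0.29, SE 0.15, adjusted p = 0.158), with replicate 3 again inside the control range. Birc5 (survivin, -0.30) and Cdca8 (borealin, -0.18) had smaller differences than their spread allows to call.

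Of 5 centromere and kinetochore genes, 1 fell in the double knockdown, a share near the 15.6% of all genes called lower. This was Nuf2, a subunit of the Ndc80 complex that holds microtubules. It counted 653, 579 and 663 in negative siRNA, 565, 569 and 686 in Yap siRNA, 418, 418 and 525 in Wwtr1 siRNA, and 477, 401 and 445 with both (-0.52, SE 0.13, adjusted p = 0.00857). The Yap siRNA libraries overlapped the controls, and the other treated groups lay below both. Its complex partner Ndc80 counted 356, 327 and 310 in negative siRNA, 331, 374 and 410 in Yap siRNA, 257, 227 and 326 in Wwtr1 siRNA, and 237, 319 and 363 with both, so that the groups overlapped (-0.13, SE 0.18, adjusted p = 0.611). Cenpf, a large outer kinetochore protein, counted 1565, 1717 and 1681 in negative siRNA and 1222, 1160 and 1571 in the double knockdown (-0.34, SE 0.17, adjusted p = 0.146), and Cenpa (-0.35) and Spc25 (-0.42) did not pass either.

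Of the 7 kinesins, 2 fell in the double knockdown, when 15.6% of all genes were called lower. Kif23, the central spindle motor of centralspindlin that is needed for cytokinesis, had the smallest adjusted p of the 49. It counted 1566, 1576 and 1780 in negative siRNA, 1323, 1313 and 1452 in Yap siRNA, 1269, 1314 and 1735 in Wwtr1 siRNA, and 909, 1074 and 1079 with both (-0.69, SE 0.12, adjusted p = 0.00124). The 3 double knockdown libraries, replicate 3 included, lay below all other 9 libraries. Kif2c, a microtubule depolymerase at centromeres, fell from 900 to 1006 in negative siRNA to 528, 608 and 742 (-0.62, SE 0.15, adjusted p = 0.00729).

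The other kinesins did not pass. Kif20a, a motor of late mitosis, counted 2562, 2386 and 2576 in negative siRNA and 2101, 2152 and 2203 in the double knockdown, wholly below but close to the controls (-0.22, SE 0.10, adjusted p = 0.117). Kif22, a chromosome arm motor, had overlapping counts of 1295, 1055 and 1476 in negative siRNA against 1181, 1064 and 1447 in the double knockdown (-0.05, SE 0.13). Kif11 (-0.60), the motor that makes the spindle bipolar, had 573 and 697 in double knockdown replicates 1 and 2 but 1199 in replicate 3, against 1133 to 1269 in negative siRNA.

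Of the spindle microtubule binders, 5 of 6 fell in the double knockdown, when 15.6% of all genes were called lower. All 6 were lower in every double knockdown library than in every control, as were 21.5% of all genes. Prc1, which crosslinks the antiparallel microtubules of the central spindle, counted 2960, 2799 and 3230 in negative siRNA and 2033, 2157 and 2559 in the double knockdown (-0.42, SE 0.14, adjusted p = 0.0387). Ckap2, a spindle pole and microtubule protein, counted 1236, 1225 and 1457 in negative siRNA, 938, 992 and 1364 in Yap siRNA, 823, 857 and 977 in Wwtr1 siRNA, and 806, 868 and 1119 with both (-0.50, SE 0.16, adjusted p = 0.0291). Nusap1 (-0.49), Hmmr (-0.46) and Troap (-0.55) fell by similar amounts, and Tpx2, the activator of Aurora A on the spindle, counted 2364, 2507 and 2713 in negative siRNA and 1768, 2149 and 2128 in the double knockdown without passing (-0.33, SE 0.15, adjusted p = 0.108).

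Ect2, the exchange factor that activates RhoA at the cleavage furrow, counted 1036, 916 and 1008 in negative siRNA, 560, 750 and 860 in Yap siRNA, 700, 898 and 937 in Wwtr1 siRNA, and 456, 615 and 801 with both (-0.70, SE 0.20, adjusted p = 0.0209). The double knockdown lay below every control library, and its replicate 3 overlapped both single knockdowns. Racgap1, the partner of Kif23 in centralspindlin, counted 798, 643 and 812 in negative siRNA and 414, 502 and 726 in the double knockdown (-0.49, SE 0.19, adjusted p = 0.0718).

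Among the genes of anaphase and its ubiquitin ligase, with which Cdca3 was grouped, 3 of 5 fell in the double knockdown. Their median was -0.58, and 15.6% of all genes were called lower. Ube2c, the E2 enzyme that works with the anaphase-promoting complex, counted 1838, 1637 and 2156 in negative siRNA, 1505, 1277 and 1642 in Yap siRNA, 1255, 1315 and 1703 in Wwtr1 siRNA, and 1004, 1064 and 1492 with both (-0.67, SE 0.17, adjusted p = 0.00967). Cdca3, a regulator that promotes mitotic entry, counted 1533, 1388 and 1667 in negative siRNA, 1279, 1424 and 1434 in Yap siRNA, 1053, 1014 and 1324 in Wwtr1 siRNA, and 797, 955 and 1157 with both (-0.67, SE 0.14, adjusted p = 0.00346). In both genes, all double knockdown libraries were below all controls. Espl1 (separase, -0.58) also fell, while its inhibitor Pttg1 (securin, -0.32) and the ligase's coactivator Cdc20 did not pass. Cdc20 counted 1895, 1676 and 2003 in negative siRNA and 1512, 1453 and 1749 in the double knockdown (-0.24, SE 0.16, adjusted p = 0.27).

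Of the 4 chromosome structure genes, Smc4 and Top2a fell in the double knockdown, when 15.6% of all genes were called lower. Smc4, a core subunit of condensin, counted 4653, 4375 and 4520 in negative siRNA, 3621, 4207 and 4712 in Yap siRNA, 3601, 3314 and 3549 in Wwtr1 siRNA, and 2940, 3147 and 3805 with both (-0.46, SE 0.11, adjusted p = 0.00618). Top2a, the topoisomerase that untangles sister chromatids, was 0.45 lower (log2 fold change -0.45, SE 0.13, adjusted p = 0.0216). Mki67, the usual proliferation marker and a coat of mitotic chromosomes, did not pass. It counted 5788, 6552 and 5859 in negative siRNA, 4305, 6291 and 5547 in Yap siRNA, 3533, 3987 and 5058 in Wwtr1 siRNA, and 4046, 3766 and 6794 with both, where replicate 3 was the highest of all 12 libraries (-0.37, SE 0.21, adjusted p = 0.203). Smc2, the other core condensin subunit, had the same shape, with 1608 and 1725 in double knockdown replicates 1 and 2 and 2545 in replicate 3.

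**Figure D3:**
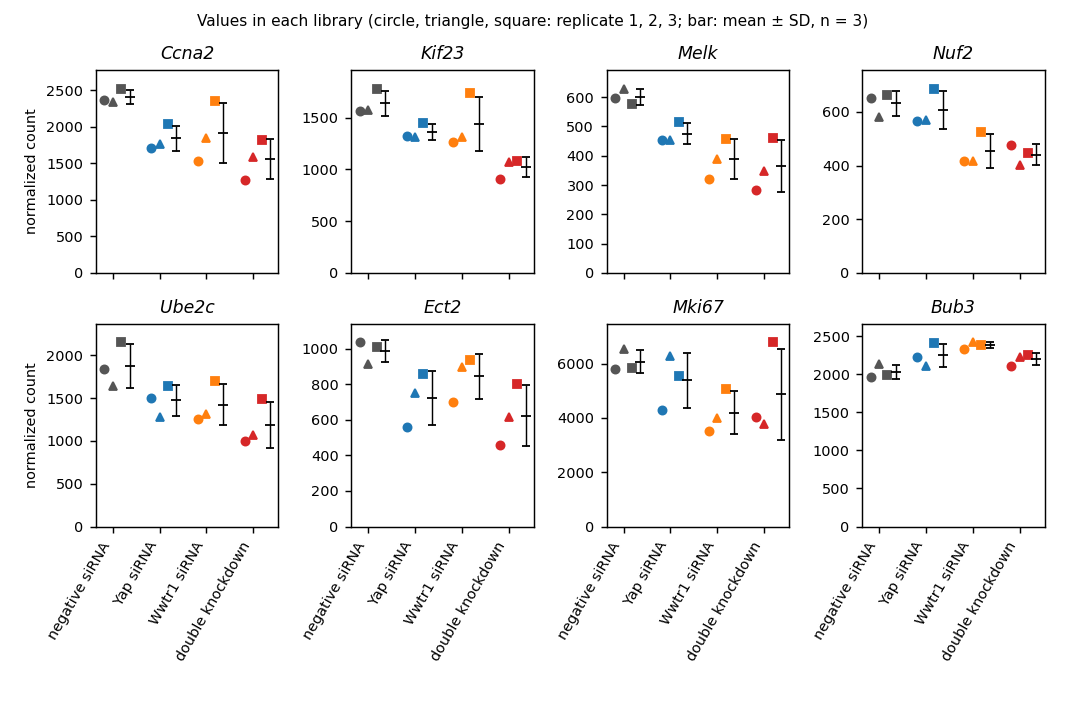
Normalized counts of 8 mitosis genes in each library, grouped by siRNA; circles, triangles and squares are replicates 1, 2 and 3, and the bar beside them is the mean ± SD (n = 3), with the axis starting at 0. The 3 double knockdown libraries of Kif23 sit at 909 to 1079, below all other libraries, while in Mki67 the double knockdown spans 3766 to 6794 and Bub3 stays between 1961 and 2420 throughout.

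Neither single knockdown gave a broad set of calls in the unpaired fit. With Yap siRNA, 0 of 49 members passed limma's test, when 1.78% of all genes were called lower. Without adjustment, 5 members were at a p under 0.05, edgeR on the recovered reads called 0 and DESeq2 called 1, and limma called 1 without Yap siRNA replicate 3. The median over the members was -0.18, and 42 of 49 had a fitted value below 0, against 50.7% of all genes. In 15 of 49, all Yap siRNA libraries were below all controls, against 12.6% of all genes. With Wwtr1 siRNA, 4 members fell and 0 rose, when 3.96% of all genes were called lower and 5% higher: Melk (-0.64, SE 0.17, adjusted p = 0.0377), Nuf2 (-0.48, SE 0.13, adjusted p = 0.0362), Ckap2 (-0.56, SE 0.16, adjusted p = 0.0457) and Smc4 (-0.37, SE 0.11, adjusted p = 0.0494).

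These 4 calls sat close to the threshold: the Wwtr1 siRNA count was 0 without any one of the 3 negative siRNA libraries or without Wwtr1 siRNA replicate 1 or 2, 1 without Yap siRNA replicate 2 or double knockdown replicate 2, 7 without Wwtr1 siRNA replicate 3 and 8 without double knockdown replicate 3. The Wwtr1 siRNA median was -0.33, and 48 of 49 members had a fitted value below 0, against 49.1% of all genes. All Wwtr1 siRNA libraries were below all controls in 21 of 49 members, against 16% of all genes.

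Same-numbered libraries of negative, Yap and Wwtr1 siRNA deviated together over all genes tested. Over the members alone, the correlation of these deviations ran from -0.036 (Yap with Wwtr1 siRNA, replicate 2) to 0.436 (negative with Yap siRNA, replicate 2). The 2 single knockdowns were therefore also fitted with the replicate number as a block, leaving out the double knockdown libraries. In that paired fit 8 of 49 members fell with Yap siRNA, when 7.12% of all genes were called lower: Ccna2 (-0.39, SE 0.09, adjusted p = 0.0143), Cdk1, Ccnb1, Aurkb, Ube2c, Ect2, Kif23 and Kif18a, a kinesin that limits chromosome oscillation (-0.59, SE 0.16, adjusted p = 0.0292). With Wwtr1 siRNA 22 members fell, when 10.3% of all genes were called lower, and Bub3 rose (0.23, SE 0.07, adjusted p = 0.0351), when 11% were called higher. The 22 included the 4 genes of the unpaired fit, and also Mki67 (-0.55, SE 0.10, adjusted p = 0.00438), Aurkb (-0.53), Cdca3 (-0.44), Cdk1 (-0.40) and Ccna2 (-0.35). With the block over all 12 libraries, 5 members fell with Yap siRNA, when 338 of 11871 genes did. With Wwtr1 siRNA 11 members fell in that fit, when 588 of 11871 genes did, and Bub3 was not called.

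**Figure D4:**
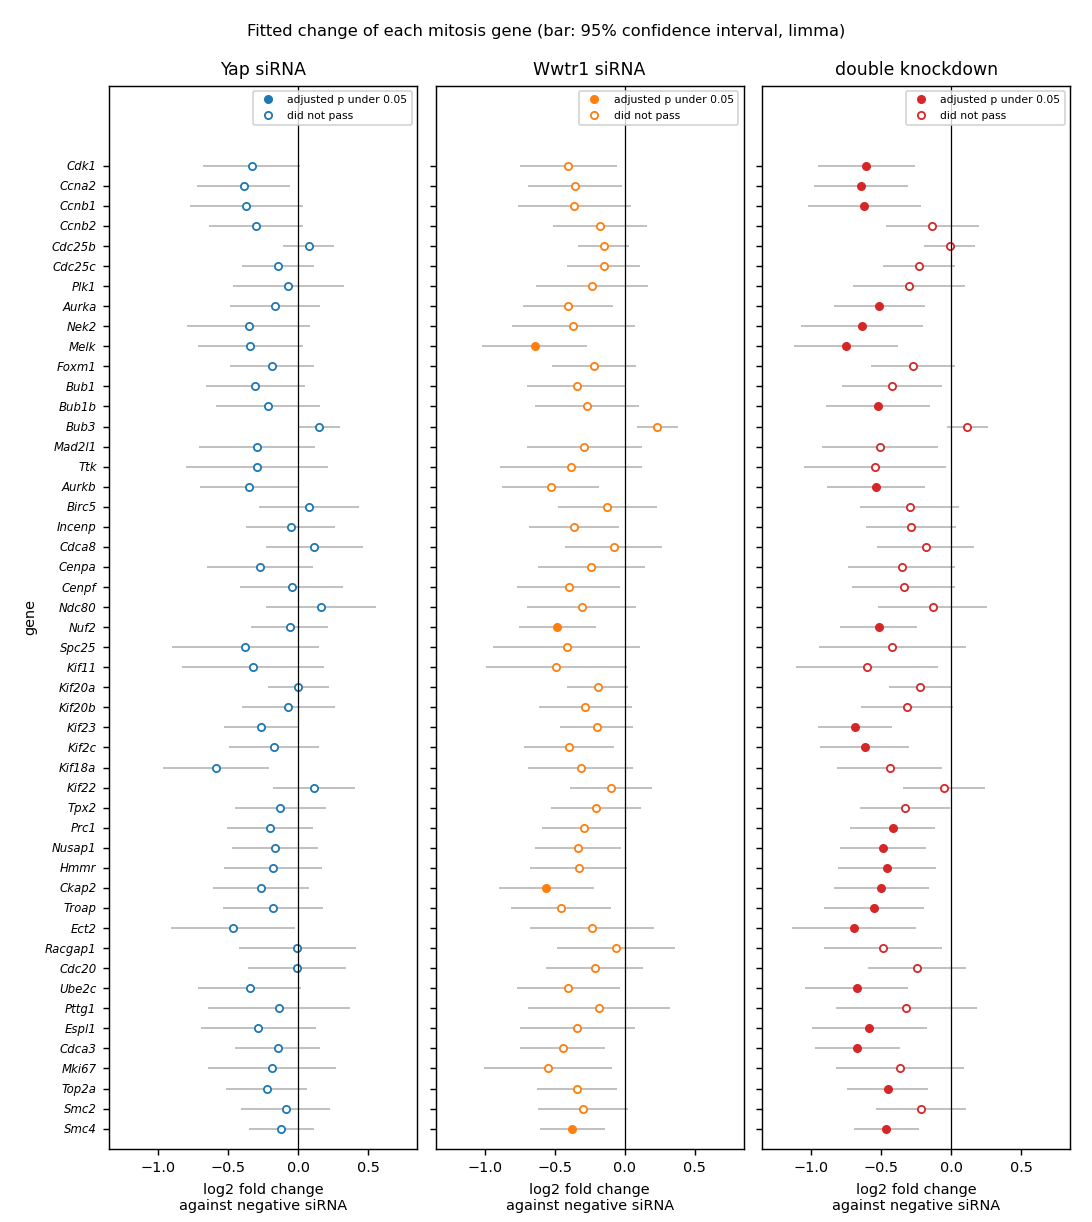
Fitted log2 fold change against negative siRNA of each of the 49 mitosis genes in Yap siRNA, Wwtr1 siRNA and the double knockdown (unpaired limma fit over 12 libraries); bars are 95% confidence intervals and filled points passed an adjusted p under 0.05. Filled points number 0, 4 and 22 from left to right, and 42, 48 and 48 of the 49 points lie left of 0.

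The 3 comparisons with negative siRNA share those libraries, so the single knockdowns were also tested against each other. In the unpaired fit 0 members differed between Yap and Wwtr1 siRNA, when 8.79% of all genes did. Without adjustment, 4 members were at a p under 0.05, edgeR called 0 and DESeq2 called 1, and limma called 1 without Yap siRNA replicate 1 and 2 without Wwtr1 siRNA replicate 3. In 40 of 49 members the Wwtr1 siRNA value was the lower one, while over all genes 50.6% were lower with Yap siRNA. The median difference (Yap minus Wwtr1 siRNA) was 0.15, and 0.05 to 0.25 with libraries left out. In the paired fit 6 members were higher with Yap siRNA than with Wwtr1 siRNA, a share close to the 11.6% of all genes called higher: Nuf2 (0.42, SE 0.10, adjusted p = 0.0119), Ndc80 (0.47), Mki67 (0.36), Cdca3 (0.29), Ckap2 (0.29) and Smc4 (0.25). In 5 of 49 members every Yap siRNA library was above every Wwtr1 siRNA library, which is no more than the 15.8% of all genes.

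The double knockdown was below Yap siRNA in 47 of 49 members (48.7% of all genes), with a median of -0.25. In the unpaired fit 3 passed, no larger a share than the 6.96% of all genes called lower: Cdca3 (-0.52, SE 0.14, adjusted p = 0.0293), Nuf2 (-0.46, SE 0.13, adjusted p = 0.0347) and Kif23 (-0.42, SE 0.12, adjusted p = 0.0389). That count was 0 without Yap siRNA replicate 2, Yap siRNA replicate 3 or double knockdown replicate 2, 1 without double knockdown replicate 1, 5 without Wwtr1 siRNA replicate 3 and 14 without double knockdown replicate 3, when 8.58% of all genes were called lower. Against Wwtr1 siRNA the double knockdown was below in 40 of 49 members (48.8% of all genes), and the median was -0.11 (-0.22 to 0.009 with libraries left out). In the unpaired fit Kif23 alone passed (-0.49, SE 0.12, adjusted p = 0.0155), a smaller share than the 10.1% of all genes called lower. That count was 0 without Wwtr1 siRNA replicate 3 or double knockdown replicate 1 and 4 without double knockdown replicate 3, when 9.86% of all genes were called lower. With the replicate number as a block over all 12 libraries, 8 members were called lower than in Yap siRNA. In that fit 1045 of 11871 genes were, a smaller share. Ect2 and Kif23 were called lower than in Wwtr1 siRNA with the block, when 1370 of 11871 genes were.

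The fitted double knockdown value was below that of both single knockdowns in 39 of 49 members, against 34.6% of all genes, and in 45 of 49 without double knockdown replicate 3, against 36.1%. Kif23 was the one member that passed as lower against each of negative, Yap and Wwtr1 siRNA, as 3.35% of all genes did, so 1 of 49 is no larger a share. Racgap1 and Bub1b passed all 3 as well without double knockdown replicate 3, when 3.94% of all genes did. Nuf2 in the double knockdown differed from Wwtr1 siRNA by -0.04, with a 95% interval from -0.31 to 0.24. Ect2 was lower in the double knockdown than in Wwtr1 siRNA by 0.46 (log2 difference -0.46, adjusted p = 0.13) and than in Yap siRNA by a fitted -0.23 (adjusted p = 0.495). Neither was past the threshold in the unpaired fit. Without double knockdown replicate 3 the difference of Ect2 from Wwtr1 siRNA was -0.66 and passed (adjusted p = 0.0328).

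Whether the double knockdown departed from the sum of both single effects was tested as an interaction. No member passed in limma (0 of 49), in edgeR (0) or in DESeq2 (0), when 1.03% of all genes did in limma, and 1 member, Bub3, was at an unadjusted p under 0.05 (-0.27, SE 0.10, adjusted p = 0.23). Without double knockdown replicate 3, limma again called 0. The interaction was above 0 in 37 of 49 members, against 51.3% of all genes. It was above 0 in 15 of 49 without double knockdown replicate 3, against 50% of all genes. Its median was 0.07 (-0.05 without that library), against 0.01 over all genes, with a range of -0.42 (Racgap1) to 0.46 (Kif18a). The 95% interval for Mki67 ran from -0.28 to 1.02 and thus includes values on both sides of 0.

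The level of the whole set varied among the libraries of each treated group. Relative to the mean of the controls, the median over the 49 members was -0.32, -0.22 and -0.01 in Yap siRNA replicates 1, 2 and 3, -0.49, -0.40 and -0.08 in Wwtr1 siRNA, and -0.64, -0.52 and -0.16 with both siRNAs, on the log2 scale. The control libraries were at 0.02, -0.07 and 0.04. Replicate 3 was the highest of its group for 41, 44 and 44 of the 49 members in the 3 treated groups and for 24 in negative siRNA, against 33.7%, 38.0%, 37.7% and 33.8% of all genes. The cardiomyocyte marker sum was lowest in replicate 3 of each of the 4 groups: it was 72935, 75024 and 42562 in negative siRNA replicates 1, 2 and 3, 82091, 81847 and 49759 in Yap siRNA, 70802, 85195 and 45895 in Wwtr1 siRNA, and 80648, 93840 and 69690 with both siRNAs. Its part in the replicate 3 levels was not tested.

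The double knockdown libraries were not taken as paired with the others, because their deviations did not correlate in every same-numbered pair. That does not show that their litters differed. These medians are a description with no pairing. Knockdown itself was also weakest in replicate 3 of each group, with Yap1 at 625 in Yap siRNA and Wwtr1 at 637 in Wwtr1 siRNA, and its part in the levels was not tested. Without replicate 3 of any group, an alternative chosen after the values were seen, 28 members were called lower in the double knockdown, when 13.5% of all genes were, and the median was -0.57.

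**Figure D5:**
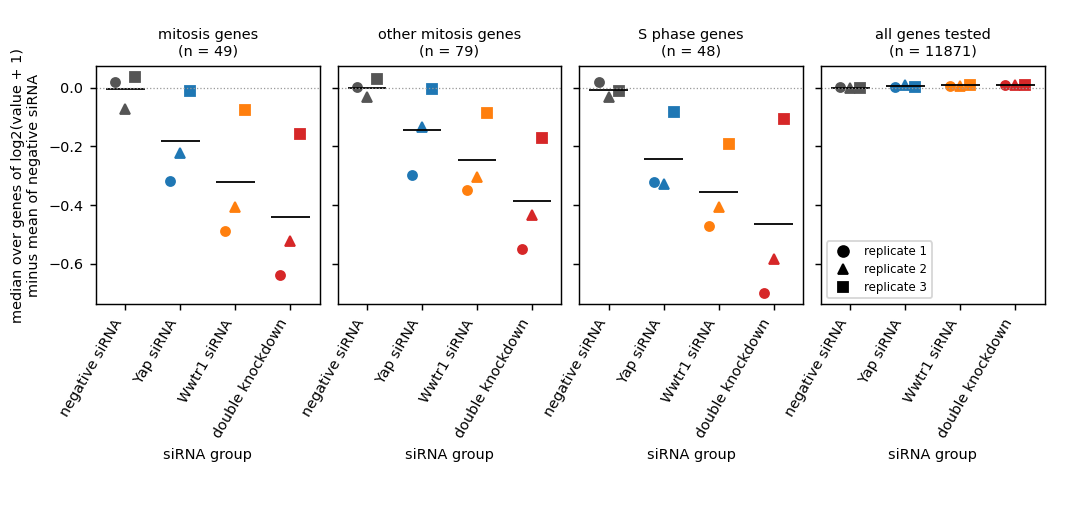
Each point is a library, and its height is the median over a gene set of log2(normalized count + 1) minus the mean of the negative siRNA libraries; circles, triangles and squares are replicates 1, 2 and 3, and the line is the mean of the 3. The mitosis genes step down from about 0 in the controls to -0.64 in double knockdown replicate 1, with replicate 3 the highest treated library of each group, while the median over all 11871 genes tested stays between 0.00 and 0.01 in every library.

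Other cell cycle genes were counted from lists that do not overlap the 49. Of 79 other mitosis genes, 28 fell and 0 rose in the double knockdown, against 15.6% of all genes called lower and 17.1% higher, with a median of -0.37. Without double knockdown replicate 3, 43 fell and 0 rose, when 17.2% of all genes were called lower and 16.9% higher. Depdc1b, linked to the G2 to M transition, counted 172, 232 and 156 in negative siRNA and 45.7, 117 and 113 in the double knockdown (-1.11, SE 0.32, adjusted p = 0.0205), and Ska1, a kinetochore protein that tracks microtubules, counted 303, 328 and 317 against 96.5, 181 and 233 (-0.98, SE 0.24, adjusted p = 0.0095). Both falls were larger than that of any of the 49. With Yap siRNA 1 of the 79 fell, when 1.78% of all genes were called lower, and with Wwtr1 siRNA 5 fell, when 3.96% were.

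Of 48 S phase genes, 20 fell and 0 rose in the double knockdown, where 15.6% of all genes were called lower and 17.1% higher, with a median of -0.46, next to -0.45 for the mitosis genes. Without double knockdown replicate 3, 38 fell and 0 rose, against the same 17.2% and 16.9% of all genes. Cdc45, a subunit of the replicative helicase, fell (-1.09, SE 0.30, adjusted p = 0.0167), and so did Orc1, of the origin recognition complex (-1.01, SE 0.21, adjusted p = 0.00343). A list of 14 regulators of these promoters held subunits and partners of the DREAM and MuvB complexes, the kinase Dyrk1a, Rb1 and the NF-Y subunits Nfya, Nfyb and Nfyc. In the double knockdown 2 of the 14 fell and 2 rose, close to the 15.6% and 17.1% of all genes, and without double knockdown replicate 3 these counts were 5, against 17.2% of all genes called lower, and 2, against 16.9% called higher, so that the falls were then a larger share than over all genes. Mybl2, which is also on the list of other mitosis genes, fell (-0.51, adjusted p = 0.036), and the pocket protein gene Rbl2 rose (0.40, SE 0.11, adjusted p = 0.0147).

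Of 17 G1 cyclins, CDK inhibitors and p53 genes, 6 fell and 3 rose in the double knockdown, the rises close to the 17.1% of all genes called higher and the falls set against 15.6% called lower. Leaving out double knockdown replicate 3, 7 fell and 4 rose, when 17.2% and 16.9% of all genes did. The damage-inducible inhibitor Gadd45a rose (0.92, SE 0.19, adjusted p = 0.00304) and the p53 target Ccng1 fell (-0.67, SE 0.13, adjusted p = 0.00227). The median of that list was 0.01.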

How the data were processed

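RNA of 12 cultures (4 siRNA groups of 3) was analysed. Per the labels and the study's methods, the authors trimmed reads with Trim Galore 0.6.5, aligned them to rn6 with HISAT2, assembled transcripts with StringTie and compared groups with DESeq2; the annotation and strand setting are not given in the sources used here. The deposited values are a signal: gene counts that were scaled with a DESeq2 size factor for each library. All 147252 values were whole multiples of a library's step within 0.01, and the recovered reads summed to 33886920 to 41059839 per library. The authors' own comparison tables (fold changes and p-values) were not used.

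Groups came from the sample labels. The main fit was limma 3.58.1 (R 4.3.3) with a mean-variance trend on log2(normalized count + 1), genes with a mean of at least 10 (11871), all 12 libraries, two-sided, Benjamini-Hochberg over all genes. p-values measure the spread over 3 cultures per group, pooled over the 4 groups and moderated across genes. A comparison therefore also depends on libraries outside it. Other pseudocounts, filters, scalings (TMM, upper quartile), edgeR 4.0.16 and DESeq2 1.42.0 on recovered reads, fits of the compared groups alone, a replicate block and leaving out each library were the alternatives. In simulated counts for the double knockdown comparison (11841 genes), 56.3% of 199 changed genes were recovered and 0.885% of calls were false. The simulated libraries were drawn independently, with no shared litters and no library set apart as double knockdown replicate 3 was. These rates need not hold for the real calls.

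Titles share the numbers 1 to 3, and the study used separate litters. Over all genes tested, deviations from group means correlated at 0.104 to 0.276 in all 9 same-numbered pairs of negative, Yap and Wwtr1 siRNA. These libraries were taken as paired. Over the members alone the range was -0.036 to 0.436. Pairs with the double knockdown ran from -0.127 to 0.180 over all genes and were not taken as paired. That does not show that their litters differed. No pair of replicates agreed within sampling noise.

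The members and lists were chosen with earlier results of these data known. Genes were named by rule: the 2 most abundant of each of 9 roles, those called in the single knockdowns, the 5 largest falls and the 5 smallest differences in the double knockdown, and the 2 largest calls of each other list; further members are given because they complete a role. Promoters came from RefSeq (GRCr8), while expression was measured on rn6.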

Additional observations from a re-analysis of the deposited data

How the results depend on the processing

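The double knockdown count of 22 stayed between 18 and 31 under all other pseudocounts, filters, scalings, tools, the fit of the compared groups alone and the replicate block (31, the 22 included), and its median between -0.43 and -0.49; leaving out 1 library, or replicate 3 of every group, gave 9 to 33 calls and medians of -0.62 to -0.34. The other counts sat near the threshold. The Yap siRNA count of 0 became 1 with DESeq2 and with the compared groups only, 5 with the replicate block over all libraries and 8 with the block without the double knockdown libraries (0 to 1 with libraries left out, medians -0.25 to -0.13). The Wwtr1 siRNA count of 4 became 1 without the trend, 7 with DESeq2, 9 with the compared groups only, 12 without replicate 3 in every group, and 11 and 23 with the 2 replicate blocks (0 to 12 with libraries left out, medians -0.44 to -0.22). Yap against Wwtr1 siRNA gave 1 with DESeq2 and 1 and 6 with the 2 blocks (0 to 2, medians 0.05 to 0.25). The double knockdown against Yap siRNA, 3 in the report, gave 1 without the trend, 5 with DESeq2, 0 with the compared groups only, 8 with the replicate block and 8 without replicate 3 in every group (0 to 14, medians -0.38 to -0.14). Against Wwtr1 siRNA, 1 became 0 with the compared groups only and 2 with the replicate block (0 to 4), and the median ran from -0.22 to 0.009. Without double knockdown replicate 3, an alternative for the lists chosen after the values were seen, calls in the double knockdown went from 28 to 43 of the 79 other mitosis genes, from 20 to 38 of the 48 S phase genes, from 4 to 7 of the 14 promoter regulators and from 9 to 11 of the 17 G1 and p53 genes. The interaction count was 0 throughout, with medians of -0.05 to 0.19. Near-zero double knockdown values changed sign without 1 library: Cdc25b ran from -0.0610 to 0.0358, Kif22 from -0.1796 to 0.0627 and Ndc80 from -0.2662 to 0.0418, and Cdc25b was at 0.0164 without replicate 3 in every group. The cause of these changes was not tested. A member that did not pass is not shown to be unchanged, and with 3 cultures per group the spread between litters limits every value.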
